A study of Mus musculus with 4 samples.

Results

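F-midi OFF ganglion cells are 1 of the 45 types of retinal ganglion cell (RGC) that the authors distinguished in the mouse retina, and were taken here as every cell carrying the authors' type name 28_FmidiOFF. There were 1815 such cells among 131379, which is 1.38% of all cells. The retinas came from wild-type C57BL/6 mice that had received no treatment, and no age is stated in the labels used. Each of the 5 retinas was cut parallel to its surface into cryosections of 20 µm and imaged with Xenium, an assay that decodes single transcripts in tissue as fluorescent puncta, on a custom panel of 300 genes. The design asked how RGC subtypes are laid out over the retina, so the comparisons below are between types and between positions within a retina. Only cells called RGCs are in the table, and shares are therefore shares of RGCs.

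RGCs are the output neurons of the retina, and each type samples the visual scene with its own set of inputs. The F cells are a family of RGCs recognised by the forkhead transcription factor Foxp2, and their mini and midi members differ in the size of the dendritic arbor. OFF members place dendrites in the outer sublamina of the inner plexiform layer and respond to light decrements, whereas ON members use the inner sublamina and respond to increments. The table holds transcripts, positions and shapes, and no response or dendrite was measured in it.

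Retinas 1 to 5 contributed 439, 625, 190, 357 and 204 F-midi OFF cells. Their counterpart F-midi ON, named 38_FmidiON, contributed 272, 297, 74, 217 and 135. F-midi OFF cells held 513337 puncta in all, with medians of 283, 272, 236.5, 266 and 249.5 per cell, against 326, 297, 285, 295 and 304 over all cells of the same retinas. Retinas 3 and 5 had the fewest cells, hence the most counting error. Whether each retina is from its own animal is not stated, and the p-values below therefore reflect only how far these 5 retinas differ, which may be technical. Across retinas 1 to 5 the sections lay on 8 slides, of which 2 held sections of more than 1 retina, so that retinas 4 and 5 and retinas 3 and 5 shared a slide.

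F-midi OFF cells made up 1.25% of the cells of retina 1 (95% Wilson interval 1.14 to 1.37), 1.52% in retina 2 (1.41 to 1.65), 1.45% in retina 3 (1.26 to 1.67), 1.29% in retina 4 (1.16 to 1.43) and 1.42% in retina 5 (1.24 to 1.63). The mean was 1.39% ± 0.114 (SD, n = 5 retinas), which placed the type 30th of the 45 by share. These intervals cover counting error only, and those of retinas 1 and 2 do not overlap. The coefficient of variation between retinas was 8.20%. Among the cells with 1 of the 5 F type names, F-midi OFF accounted for 10.9% ± 1.14. There were 1.61, 2.10, 2.57, 1.65 and 1.51 F-midi OFF cells for each F-midi ON cell in retinas 1 to 5 (1.89 ± 0.443), so the OFF type was the more numerous in every retina. Cells of the type were found in 37 of the 41 sections. In the 27 sections with at least 1000 cells their share ran from 0.650% to 1.96%, with a median of 1.43%. In retina 4 the share was 1.67% on one slide and 1.16% on the other, while in the remaining retinas both slides lay between 1.24% and 1.53%.

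Foxp2 bore out the family name. It reached 1.40, 1.36, 1.08, 1.23 and 1.01 puncta per F-midi OFF cell in retinas 1 to 5 (1.22 ± 0.170), against 0.313 in all cells outside the type. The 5 F types were the 5 highest of the 45 in Foxp2 per 10000 puncta, in the order F-mini ON (77.5 ± 2.50), F-mini OFF (63.9 ± 2.20), F-midi ON (48.9 ± 6.03), 32_F_Novel (48.4 ± 3.13) and F-midi OFF (43.5 ± 4.47). The last 3 of these lay within their spread between retinas. The next type, 11_Novel, stood at 11.6 ± 1.31. The type names can rest on Foxp2 itself, so this order describes the names and tests nothing.

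Foxp2 was not seen in every F-midi OFF cell. At least 1 Foxp2 punctum was counted in 55.7% ± 5.86 of them, at a median depth of 267 puncta. After each cell was thinned to 100 puncta the share was 31.4% ± 3.44, the fourth highest of the types. Alpha ON sustained cells (43_AlphaONS), the type with the lowest thinned share, gave 3.37% before thinning at a median depth of 415 and 0.958% after it. A share of cells with a punctum counts detection at this depth and does not separate cells that lack the transcript from cells in which it was missed.

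**Figure D1:**
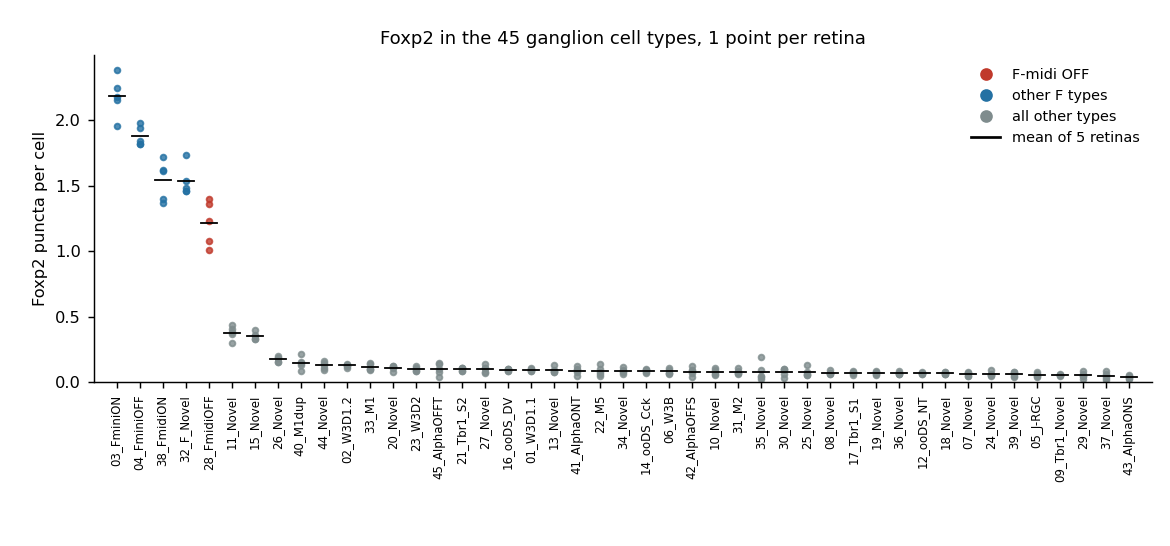
Foxp2 puncta per cell (y axis) in each of the 45 types (x axis), 1 point per retina and a black bar for the mean of 5 retinas, with F-midi OFF in red and the other F types in blue. F-midi OFF lies between 1.01 and 1.40 puncta per cell, at the lower end of the F types and above every type outside that family.

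The second forkhead gene of the panel, Foxp1, set F-midi OFF apart from F-midi ON. It measured 1.98, 1.69, 1.41, 1.80 and 1.29 puncta per F-midi OFF cell in retinas 1 to 5 (1.64 ± 0.284). F-midi ON cells had 0.621, 0.764, 0.824, 0.604 and 0.570 (0.677 ± 0.111), and the ranges do not overlap. In thinned cells Foxp1 was seen in 39.4% ± 4.50 of F-midi OFF cells, the second highest share after F-mini OFF (60.2% ± 2.00), and in 18.1% ± 2.03 of F-midi ON cells. Foxp2 leaned the other way within the pair, with a fitted log2 difference of -0.35 between OFF and ON. Per 10000 puncta its means, 43.5 ± 4.47 in OFF and 48.9 ± 6.03 in ON, lay within their spread between retinas. In retina 1 Foxp2 measured 1.40 puncta per OFF cell and 1.39 per ON cell. Over the 45 types, genes whose log2 levels followed Foxp2 closely included Npnt (Pearson r = 0.654), Gria1 (0.645) and Foxp1 (0.641). These correlations are across types that share libraries, and carry no test.

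By the whole panel, the type whose profile was most like F-midi OFF was F-mini OFF (Pearson r = 0.947 across 300 genes of log2 levels), followed by 15_Novel (0.939) and F-midi ON (0.935). The OFF type of the mini pair was thus closer than the ON type of the midi pair, and it stayed first with each retina left out in turn (0.946 to 0.947). The remaining F types, 32_F_Novel (0.923) and F-mini ON (0.905), were 7th and 12th, behind several types outside the family. Genes are not independent replicates, and all types share the same libraries.

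Against the mean of the other 44 types, taken with equal weight on the log2 scale, 18 of 299 genes (6.02%) were higher in F-midi OFF and 15 (5.02%) lower by at least 1 log2 unit in the edgeR fit with the same sign in all 5 retinas. The median over all genes was -0.13. Since the authors' types can rest on these genes, this and the comparisons of types that follow are descriptions without a test, and the errors are SEs of the fit. The lead gene after Foxp2 (3.44 ± 0.07) was Rprm (3.05 ± 0.06), which encodes reprimo, a protein linked to cell cycle arrest. F-midi OFF was 3rd of the 45 types in Rprm. Grin3a, an NMDA receptor subunit, was higher by 2.69 ± 0.05, with 2.34, 2.10, 1.63, 1.86 and 1.63 puncta per cell in retinas 1 to 5 against 0.442 outside the type. F-midi OFF was second among the 45 types in Grin3a, after F-mini OFF.

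Several more genes were higher. The protease inhibitor gene Serpine2 (2.54 ± 0.10) and Npnt, which encodes the matrix protein nephronectin (2.12 ± 0.11), were both second highest in F-midi OFF among the types. Npnt was the single gene of 11 on the list of matrix and secreted proteins that passed, and 3 of the 11 lay above 0 (median -0.22). Cdh8, a classical cadherin, was higher by 2.06 ± 0.07 and Foxp1 by 2.10 ± 0.05, with F-midi OFF 6th and 3rd of the types. For 2 genes F-midi OFF was the highest type of all. Adrb1, the beta-1 adrenergic receptor, had 1.43, 1.13, 1.16, 1.11 and 1.07 puncta per F-midi OFF cell against 0.350 in the other cells (2.01 ± 0.06). Car3, carbonic anhydrase 3, had 0.472, 0.413, 0.426, 0.420 and 0.304 against 0.142 (1.70 ± 0.09). The lowest retina of F-midi OFF lay above the mean of the other cells for either gene.

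The T-type calcium channel gene Cacna1i (1.67), the GABA synthesis gene Gad2 (1.58) and the GABA-A receptor subunit Gabrb1 (1.49) completed the 12 largest differences on the higher side among genes with one sign in all retinas. F-midi OFF was 2nd of the types in Cacna1i, 3rd in Gad2 and 6th in Gabrb1. Sst, which encodes somatostatin, had a fitted difference of 1.60 ± 0.52 without one sign (above 0 in 3 of 5 retinas), from 0.00228, 0.00480, 0.00526, 0.0112 and 0.0931 puncta per cell, so that retina 5 stood far above the rest. Genes low in F-midi OFF included Syt2, a synaptic vesicle calcium sensor (-1.77 ± 0.12), Sv2c, a synaptic vesicle glycoprotein (-1.56 ± 0.07), and the atypical sodium channel gene Scn7a (-1.74 ± 0.11). Syt2 measured 0.0797, 0.109, 0.0684, 0.0868 and 0.0931 puncta per cell against 0.402 in the other cells, and F-midi OFF was 42nd of the 45 types. The growth factor genes Kitl (-1.38), Igf1 (-1.30) and Fgf1 (-1.17), the GABA-A subunit Gabrg3 (-1.37), the transcription factor genes Pou4f3 (-1.30) and Ebf3 (-1.11), Sh3bgr (-1.35), the collagen gene Col9a1 (-1.31) and the potassium channel gene Kcnh1 (-1.15) were also low. With all other cells pooled in place of equal weights per type, 59 genes passed, 29 of them shared. Foxp2 then stood at 2.31 and Rprm at 2.39, Gabrg3 moved to -2.14 and Kcnh1, at -0.90, no longer passed.

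The fixed gene groups were counted by the same rule, beside the 6.02% higher and 5.02% lower over all genes. Both forkhead genes were higher. Of 9 ionotropic glutamate receptor genes 2 were higher, Grin3a and the AMPA receptor subunit Gria1, and none was lower. Among 15 GABA and glycine receptor genes 2 were higher (Gabrb1 and Gabrg1) and 1 lower (Gabrg3), with a list median of 0.22. Of 9 sodium channel genes none was higher and 2 were lower, led by Scn7a, with a median of -0.34. Together the sodium channel genes took 6.02% of the puncta of F-midi OFF cells against 7.37% in the other cells, and the type was 41st of the 45 in that share. Of 23 potassium channel genes only Kcnh1 passed, and of 16 calcium channel genes only Cacna1i, counts near those over all genes. Among 19 transcription factor genes the LIM factor gene Isl1 was higher (1.24) and 2 were lower, Pou4f3 and Onecut2. Of 13 marker genes of other RGC subclasses 1 was higher, Rprm, again near the share over all genes. The POU factor gene Pou4f2, found in many RGC types, measured 0.990 ± 0.126 puncta per cell (10th of the types). Melanopsin, encoded by Opn4, measured 0.0309 ± 0.0111, the T-box factor gene Eomes 0.309 ± 0.0404, osteopontin, encoded by Spp1, 0.390 ± 0.131 and Neurod2 0.0382 ± 0.0164, each below the mean of the other cells.

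Marker lists of other retinal cells were counted in the same cells. All 14 amacrine genes lay above 0 against the other types (median 0.37), where 121 of 299 did so over all genes. Of the 14, 1 passed, Gad2, a count near the share over all genes. Sst had the highest fitted value of the list and Th, the dopamine synthesis gene, the lowest (0.07). Summed, the amacrine genes took 5.80% of the puncta of F-midi OFF cells against 4.10% outside the type, the third highest share of the types. In puncta per cell the list ran from 15.7 to 16.8 over the retinas in F-midi OFF, from 12.8 to 13.8 in the other cells and from 17.3 to 18.6 in F-midi ON. None of the 14 was at 0 in F-midi OFF. Chat, the acetylcholine synthesis gene of starburst amacrine cells, stood at 0.343 per cell against 0.269, and Tfap2b at 0.728 against 0.510. The part of amacrine transcripts in the Gad2 difference was not tested. Rod genes ran from 0.970 to 1.59 per cell against 0.856 to 1.80, and Müller glia genes from 1.35 to 1.76 against 1.39 to 1.94. Microglial, endothelial, pericyte and astrocyte genes stayed under 0.09 puncta per cell for each list in F-midi OFF.

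The comparison with F-midi ON addressed the pair directly. F-midi OFF was higher in 27 of 299 genes (9.03%) and lower in 20 (6.69%), with a median of 0.09 over all genes. Rprm differed most on the higher side (3.53 ± 0.14). It had 2.25, 2.63, 1.78, 2.13 and 1.76 puncta per F-midi OFF cell in retinas 1 to 5, and 0.180, 0.256, 0.257, 0.111 and 0.133 per F-midi ON cell. The lowest OFF retina exceeded the highest ON retina by far. Cdh8 followed (3.06 ± 0.15), with 1.39, 1.34, 1.20, 1.42 and 1.05 puncta per OFF cell and 0.162, 0.155, 0.189, 0.143 and 0.126 per ON cell.

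Further genes followed. The plasma membrane calcium pump gene Atp2b4 was higher in OFF by 2.22 ± 0.15 and the potassium-dependent sodium-calcium exchanger gene Slc24a2 by 1.76 ± 0.09. F-midi ON was 44th of the 45 types in Slc24a2 and F-midi OFF 29th, so this difference lay mainly in a low value of the ON type. The peptide precursor gene Vgf (1.79), Ramp3, which modifies calcitonin-type receptors (1.81), Car3 (1.79), Gad2 (1.69), Gabrb1 (1.86), Npnt (1.62), the synaptic adhesion gene Slitrk6 (1.61) and the Iroquois factor gene Irx6 (1.48) were the other named genes higher in OFF. Foxp1 was higher by 1.30. In puncta per cell, OFF also lay below the cells outside the type for Atp2b4 (0.718 against 0.762), Ramp3 (0.119 against 0.161), Slitrk6 (0.108 against 0.149) and Irx6 (0.278 against 0.522). F-midi ON was 34th, 40th, 42nd and 41st of the types in these. For Rprm, Cdh8, Gabrb1, Car3, Vgf, Gad2, Npnt and Foxp1 the OFF mean lay above the cells outside the type.

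Of the 19 listed transcription factor genes, 4 were lower in F-midi OFF than in F-midi ON and 2 higher, with 12 of 19 above 0 and a median of 0.12. The transcription factor gene Ebf3, which is not on that list, was lower in F-midi OFF by 3.26 ± 0.09 log2 units, with 0.478, 0.414, 0.558, 0.345 and 0.471 puncta per OFF cell against 5.14, 4.08, 3.42, 4.22 and 3.78 per ON cell. Isl2, a LIM homeodomain factor gene, measured 0.276, 0.240, 0.247, 0.269 and 0.216 against 2.38, 1.68, 1.41, 1.65 and 1.36 (log2 difference -2.80 ± 0.12). In thinned cells Isl2 was seen in 8.13% ± 0.606 of OFF cells and 38.6% ± 6.44 of ON cells. The homeobox gene Meis2 stood at 2.31 ± 0.346 in OFF and 12.4 ± 1.16 in ON, the highest type of the 45 (log2 difference -2.45 ± 0.10). Pou4f3 (-2.53 ± 0.15) and the AP-2 factor gene Tfap2d (-2.08 ± 0.16) were also lower in OFF. The OFF and ON ranges did not overlap for any of these 5 genes.

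The other genes low in OFF relative to ON were Gal, which encodes the neuropeptide galanin, Lxn, a carboxypeptidase inhibitor, Scn7a and the glycine receptor subunit gene Glra1. Galanin transcripts measured 0.0387, 0.0224, 0.0316, 0.0196 and 0.0294 puncta per OFF cell and 0.603, 0.374, 0.216, 0.235 and 0.133 per ON cell (log2 difference -3.60 ± 0.28). The ON values spread widely between retinas and all lay above the OFF values. Lxn differed by -2.70 ± 0.12 and Scn7a by -2.74 ± 0.13. Glra1 measured 0.892 ± 0.0788 in OFF and 2.76 ± 0.320 in ON, again the highest type of all (log2 difference -1.65). The remaining named genes were Evc2 (-1.65), the synaptic adhesion gene Lrrtm1 (-1.39) and the potassium channel partner Kcnip1 (-1.25).

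**Figure D2:**
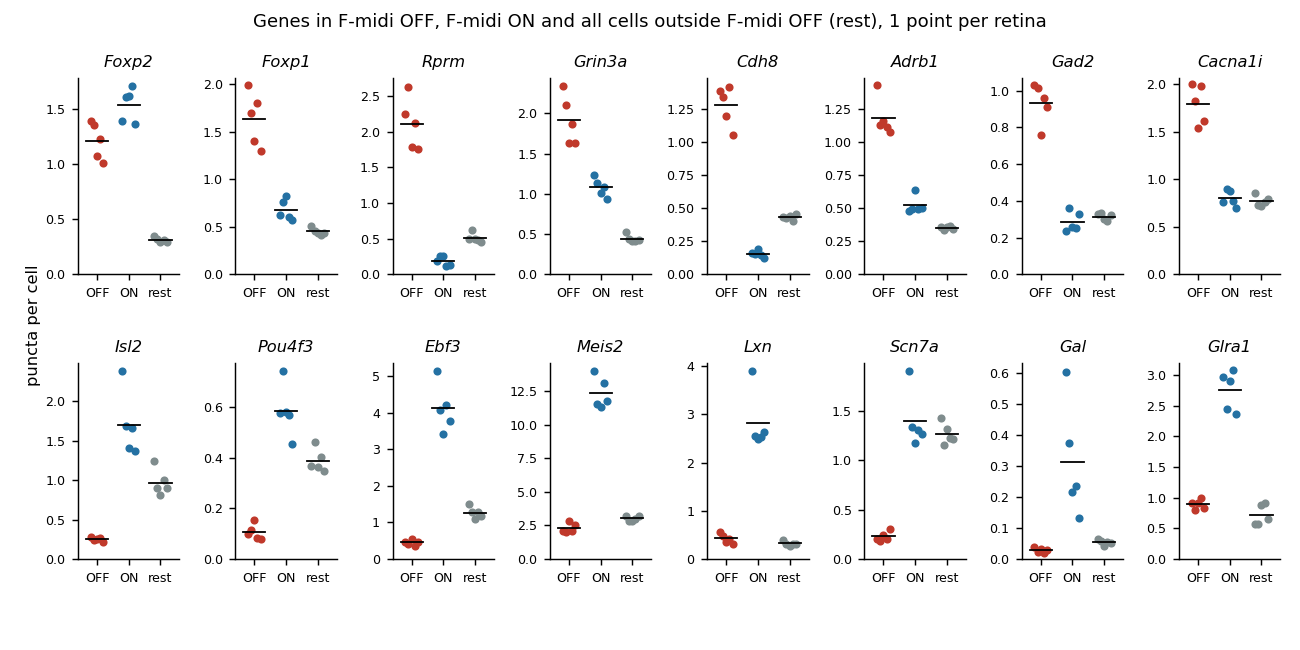
Puncta per cell (y axis, own scale for each gene, from 0) of 16 genes in F-midi OFF (red), F-midi ON (blue) and all cells outside F-midi OFF (grey), 1 point per retina and a bar for the mean. Rprm and Cdh8 are high in F-midi OFF and below the grey points in F-midi ON, Foxp1 is highest in F-midi OFF, and Isl2, Ebf3, Meis2, Lxn and Glra1 are highest in F-midi ON.

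F-midi OFF was also set beside the other F types in the same fit. Against F-mini OFF, 23 of 299 genes were higher (7.69%) and 19 lower (6.35%). The largest differences were Gabrg1, a GABA-A subunit (3.15 ± 0.13), the protocadherin genes Pcdh17 (2.38 ± 0.12) and Pcdh11x (2.35 ± 0.08), Gabrb1 (2.34 ± 0.12), Gad2 (2.30 ± 0.12) and Pou4f2 (2.22 ± 0.09). Gria1 (-2.56 ± 0.11), Lypd1, a modulator of nicotinic receptors (-2.06 ± 0.17), and Onecut1 (-1.86 ± 0.10) were lower. Against F-mini ON, 30 genes were higher (10%) and 27 lower (9.03%), led by Rprm (3.72 ± 0.10), Cdh8 (3.26 ± 0.11) and Serpine2 (3.17 ± 0.16) and, on the other side, by Spon1 (-3.15 ± 0.11) and Ppp1r17 (-3.14 ± 0.11). Against 32_F_Novel, 20 were higher (6.69%) and 23 lower (7.69%), with Rprm (3.11 ± 0.11) at one end and Coch (-4.56 ± 0.12) and Gal (-3.50 ± 0.26) at the other. Isl2 was lower in F-midi OFF than in each of these 3 types, by 1.71, 2.58 and 2.11 log2 units.

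F-midi OFF cells were small. Their median volume was 528, 567, 520, 479 and 538 in retinas 1 to 5, in the units of the table, which are not stated (526 ± 31.8, 42nd of the 45 types). F-midi ON cells had 607, 587, 712, 522 and 550 (596 ± 73.2). The OFF median was below the ON median in all 5 retinas, at a ratio of 0.888 (log2 -0.17 ± 0.17, SD; exact two-sided sign-flip permutation test, p = 0.0625, the smallest p that 5 retinas allow). Retina 3 had the widest gap, and without it the log2 ratio was -0.10. Against the median of the other types the ratio was 0.869, again lower in 5 of 5 (p = 0.0625 in the same exact test). F-mini ON and F-mini OFF cells were similarly small, 40th and 39th of the types. Against them the ratio was 0.972 and 0.956 (exact p = 0.375 and 0.125). The OFF median of puncta per cell was 261 ± 18.5 against 313 ± 17.9 in ON (ratio 0.835, lower in 5 of 5, exact p = 0.0625), and puncta per unit of volume were 0.518 ± 0.0342 and 0.525 ± 0.0572 (log2 -0.02, exact p = 0.6875). F-midi OFF cells also had the lowest median flatness of the 45 types (1.43 ± 0.101), below the median of the other types in 5 of 5 retinas (log2 -0.09 ± 0.04, exact p = 0.0625). F-mini OFF (1.46 ± 0.111) and F-midi ON (1.48 ± 0.102) were close, 42nd and 40th. Against these, the F-midi OFF median was the higher in 2 and 1 of 5 retinas (exact p = 0.4375 and 0.25). In all, 35 such comparisons of size, shape and spacing were computed, 7 measures against 5 references, and 20 reached the smallest p. Adjusted over the 35, that p becomes 0.109, so none of them passed.

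Spacing was read from the nearest cell of the same type. The median distance from an F-midi OFF cell to the nearest other cell of its type in the section was 99.3, 83.4, 75.6, 84.7 and 79.0 table units (84.4 ± 9.08), against 120, 151, 141, 120 and 113 in F-midi ON (129 ± 16.1). This distance falls with the share of a type, and F-midi OFF was the more numerous of the pair. The 10th percentile ran from 29.5 to 44.9 in OFF and from 59.4 to 68.9 in ON. A neighbour of the same type closer than 30 units was found for 4.10%, 7.36%, 9.47%, 8.12% and 10.3% of OFF cells, and for 0% to 2.96% of ON cells.

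Neighbour counts were therefore set against the local mix of types. Among the 5 nearest cells of 1813 F-midi OFF cells, 45 were F-midi OFF, whereas the share among the 100 nearest cells would have given 116. The share was 0.496% in the near set and 1.28% in the wider set, a ratio of 0.389. The log2 ratio was -1.19, -1.30, -1.44, -1.55 and -1.55 in retinas 1 to 5 (-1.40 ± 0.16, lower in 5 of 5, exact two-sided sign-flip p = 0.0625). With the 10 nearest cells it was -0.60. By this ratio F-midi OFF was 21st of the 45 types from the lowest, so its spacing was in the middle of the range of types. No difference was detected for F-midi ON cells around F-midi OFF cells. There were 73 among the 5 nearest cells, against 66.6 at the local share, and the log2 ratio was 0.22, 0.30, 0.14, -0.51 and 0.27 (0.08 ± 0.34, exact p = 0.625), with retina 4 opposite to the rest. The mean was -0.05 with the 10 nearest cells.

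**Figure D3:**
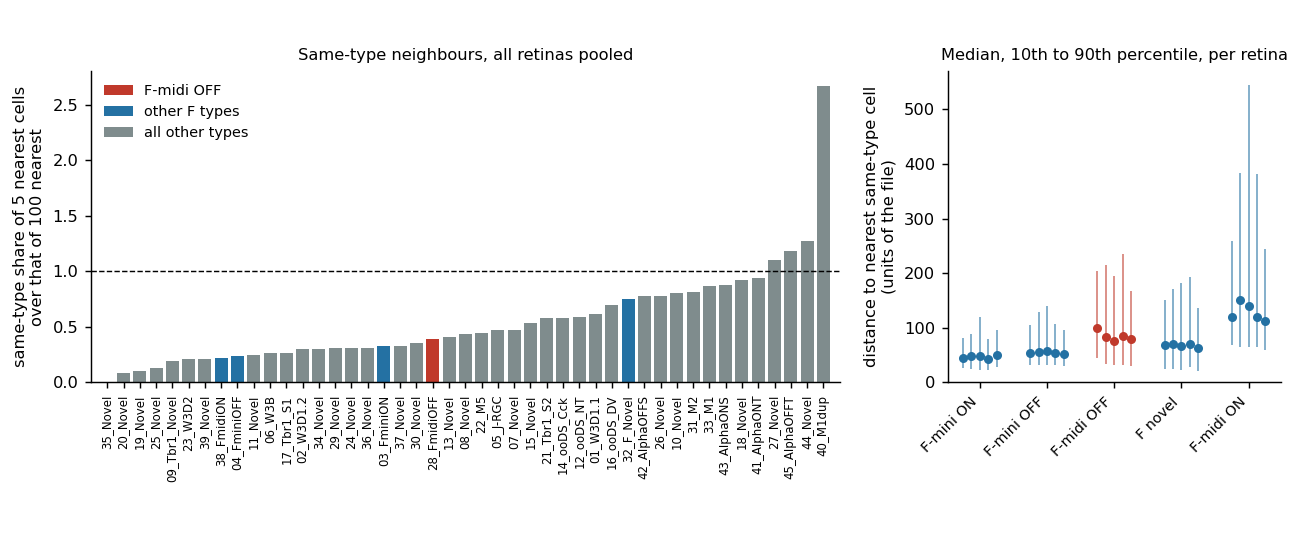
Left, share of same-type cells among the 5 nearest cells over that among the 100 nearest (y axis, bars from 0, all retinas pooled) for each type (x axis), with the dashed line at 1, F-midi OFF in red and other F types in blue. Right, distance to the nearest cell of the same type (y axis, table units) for the 5 F types, with points for the median of each retina and lines from the 10th to the 90th percentile: F-midi OFF at 0.389 lies in the middle of the types, and its medians lie below those of F-midi ON.

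Position was read from coordinates that the authors had scaled to a circle. No label gives the anatomical direction of the X or Y axis or says that an axis points the same way in every retina. Along Y, F-midi OFF took a smaller share on the positive than on the negative side in all 5 retinas. The shares were 1.17% and 1.33% in retina 1, 1.30% and 1.70% in retina 2, 1.39% and 1.52% in retina 3, 0.989% and 1.51% in retina 4 and 1.31% and 1.60% in retina 5. Retina 4 had the widest gap. The means were 1.23% ± 0.157 and 1.53% ± 0.133. The log2 difference of -0.32 ± 0.10 (SE) did not pass in edgeR after adjustment over the 45 types (adjusted p = 0.0984, unadjusted 0.0127), and the exact sign-flip test over retinas gave p = 0.0625. No type passed along Y (0 of 45, 0%), although 16 had an unadjusted p under 0.05. DESeq2 gave F-midi OFF an adjusted p of 0.0722. In 6 bins from the most negative to the most positive Y the mean share was 1.57, 1.48, 1.49, 1.26, 1.22 and 1.15%.

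The call along Y depended on the block. With the section in place of the retina as the block, added after seeing the data, the difference was -0.42 ± 0.11 with an adjusted p of 0.00154 over 54 section sides, where sections of a retina are not independent. Without any block it was -0.32 with an adjusted p of 0.0442. The number of types past the threshold is not given for either setting, so whether these calls set F-midi OFF apart from the other types cannot be told.

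From the centre outwards no difference passed for the type. Its share was 1.43% ± 0.0934 inside the middle of the scaled radius and 1.37% ± 0.130 outside it, a log2 difference of -0.07 ± 0.08 (edgeR, adjusted p = 0.489). Of the 45 types 19 passed along the radius (42.2%). F-midi ON, in contrast, was more frequent outside, at 0.841% against 0.622% (0.42 ± 0.12, adjusted p = 0.0108, higher in 5 of 5 retinas). The number of F-midi OFF cells for each F-midi ON cell was lower outside in every retina. In retinas 1 to 5 the log2 difference in the OFF share was -0.28, -0.04, -0.03, -0.01 and 0.04. That in the ON share was 0.62, 0.16, 0.02, 0.69 and 0.57. The log2 difference in the OFF to ON ratio was -0.90, -0.20, -0.04, -0.70 and -0.53 (-0.48 ± 0.35, SD), with an exact p of 0.0625. The ratio was also lower on the positive than on the negative Y side in every retina, with log2 differences of -0.67, -0.33, -0.10, -1.15 and -0.41 (-0.53 ± 0.40, exact p = 0.0625). Along X neither the share (-0.04 ± 0.09, adjusted p = 0.796, with 13 of 45 types or 28.9% past the threshold) nor the ratio (-0.17 ± 0.32, exact p = 0.3125) passed. Adjusted over the 3 axes, the exact p of the ratio was 0.0938 for the radius and for Y.

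**Figure D4:**
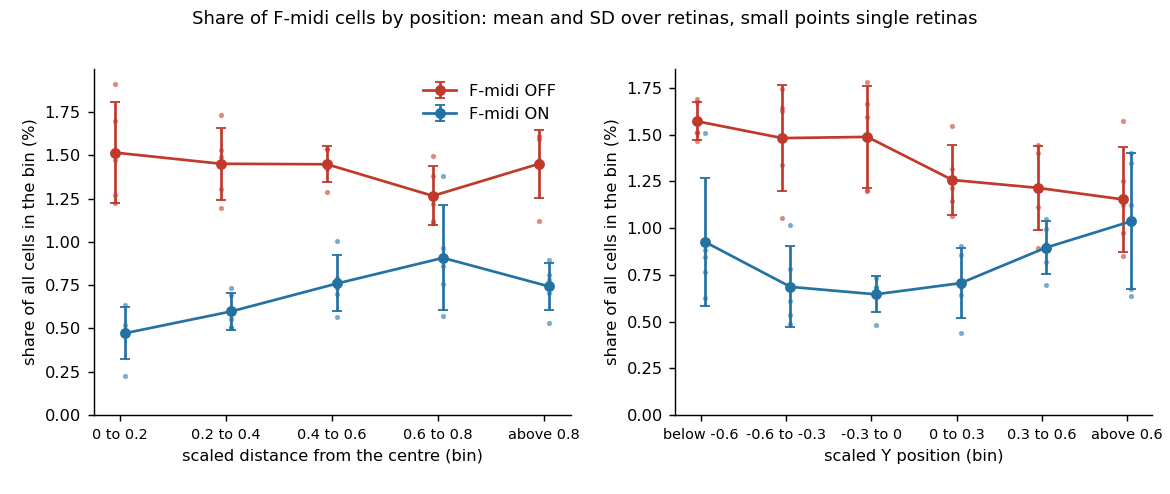
Share of all cells (y axis, percent, from 0) that were F-midi OFF (red) or F-midi ON (blue) in bins of the scaled distance from the centre (left) and of scaled Y (right), with mean and SD over 5 retinas and small points for single retinas. The F-midi OFF mean goes from 1.57% to 1.15% along Y and stays between 1.27% and 1.52% along the radius. F-midi ON goes from 0.473% at the centre to 0.907% in the fourth radial bin and is at 0.743% in the outermost.

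Within F-midi OFF, genes were compared between the sides of each axis. Along the radius 4 of 241 genes passed in edgeR (1.66%, against 2.34% of all type-gene pairs). Sv2c, already among the low genes of the type, was lower outside the middle radius (-0.43 ± 0.10, adjusted p = 0.0193). Its outer level was 34.1, 36.7, 43.7, 26.2 and 45.05 per 10000 puncta in retinas 1 to 5 and its inner level 49.0, 44.1, 67.0, 43.9 and 51.3. Each outer value was below its inner value, while the 2 ranges overlapped across retinas. The helix-loop-helix factor gene Bhlhe22 was also lower outside (-0.68 ± 0.17, adjusted p = 0.0375). The surface glycoprotein gene Cd24a (0.54 ± 0.14, adjusted p = 0.0390) and the GABA-A subunit gene Gabra4 (0.35 ± 0.09, adjusted p = 0.0427) were higher outside, in 5 of 5 retinas each.

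Of these genes, Sv2c passed along the radius in 6 of 40 types, Cd24a and Gabra4 in 4 each and Bhlhe22 in F-midi OFF alone, without a test that its difference is larger here. Fxyd6, a regulator of the sodium pump, passed in 28 types, and in F-midi OFF it stood at 0.38 ± 0.12 with an adjusted p of 0.0866. All 3 rod genes lay above 0 outwards with a median of 0.50, led by Gngt1 (0.51), and none passed. Their part in the 4 calls was not tested. In a fit blocked by slide inside each retina, a setting chosen after seeing the data, Sv2c stood at -0.39 (adjusted p = 0.0753), Cd24a at 0.57 (0.0753), Bhlhe22 at -0.55 (0.155) and Gabra4 at 0.11 (0.799), so that none of the 4 passed. Without retina 4 none passed either, 1 passed without retina 2 and 2 without retina 5, and 10 passed without retina 1, of which 1 was among the 4. Sv2c passed without retina 1, 2 or 5 and Bhlhe22 without retina 3, while Cd24a (adjusted p = 0.0704 to 0.126) and Gabra4 (0.0797 to 0.245) passed in none of the 5 fits.

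Along Y 3 of 254 genes passed in F-midi OFF (1.18%, against 0.37% of all pairs), each lower on the positive side in 5 of 5 retinas. Pcdh11x, a protocadherin, measured 88.1, 92.1, 95.2, 80.4 and 91.1 per 10000 puncta on the positive side and 135, 123, 108, 126 and 95.6 on the negative (-0.48 ± 0.09, adjusted p = 0.00956). The gap was smallest in retina 5, and the highest positive value lay just below the lowest negative value. Jam2, an adhesion molecule, measured 106, 111, 106, 104 and 115 against 153, 152, 108, 145 and 122 (-0.41 ± 0.08, adjusted p = 0.0214), and here the sides overlapped across retinas. Slc17a6, the vesicular glutamate transporter of RGCs, was lower by 0.18 log2 units on the positive side (-0.18 ± 0.04, adjusted p = 0.0355). Pcdh11x passed along Y in 2 of 42 types, each time lower on the positive side. Jam2 passed in 2, lower in F-midi OFF and higher in the other type. Slc17a6 passed in F-midi OFF alone, without a test that its difference is larger here. Meis2 was higher in 5 of 5 retinas at 0.40 ± 0.09, with an adjusted p of 0.0536. With the slide as a block Pcdh11x and Meis2 passed (-0.46 and 0.48, adjusted p = 0.0150 for each, over the genes of F-midi OFF), and Jam2 and Slc17a6 did not (0.0758 for each). No gene passed without retina 1, 2 or 4, while 5 passed without retina 3 and 15 without retina 5. Along X no gene passed (0 of 256, 0%), in edgeR or DESeq2, and 24 had an unadjusted p under 0.05.

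The genes counted as higher or lower in F-midi OFF than in the mean of the other types were also read along each axis. Of the 18 genes higher than in the other types, 15 lay below 0 along Y with a median of -0.23, and of the 13 tested genes of the lower set 11 lay above 0 with a median of 0.20. Over all 254 genes the median was 0.04, and 134 lay above 0. Along the radius 17 of the 18 lay above 0, with a smaller median of 0.06, and 10 of 13 of the lower set below 0 (-0.11), and along X 14 of the 18 lay below 0 (-0.13), so one-sided counts were not particular to Y. Along Y 1 of the 18 genes passed the threshold, Jam2. Adrb1 stood at -0.61 ± 0.14 (adjusted p = 0.0638), Cdh8 at -0.48 ± 0.12 (0.103), Gad2 at -0.53 ± 0.17 (0.206), Foxp1 at -0.22 ± 0.11 (0.447) and Foxp2 at -0.20 ± 0.14 (0.627). Of the lower set, Pou4f3 stood at 0.65 ± 0.27 (0.347) and Sv2c at 0.48 ± 0.14 (0.172). The set was put together after these values were seen and is a description. F-midi OFF cells also had fewer puncta on that side, with medians of 244.5 ± 25.8 against 272.7 ± 14.6 (log2 -0.16 ± 0.15, lower in 5 of 5, exact p = 0.0625), while other cells differed by a log2 of -0.0060. The part of depth in the pattern was not tested.

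**Figure D5:**
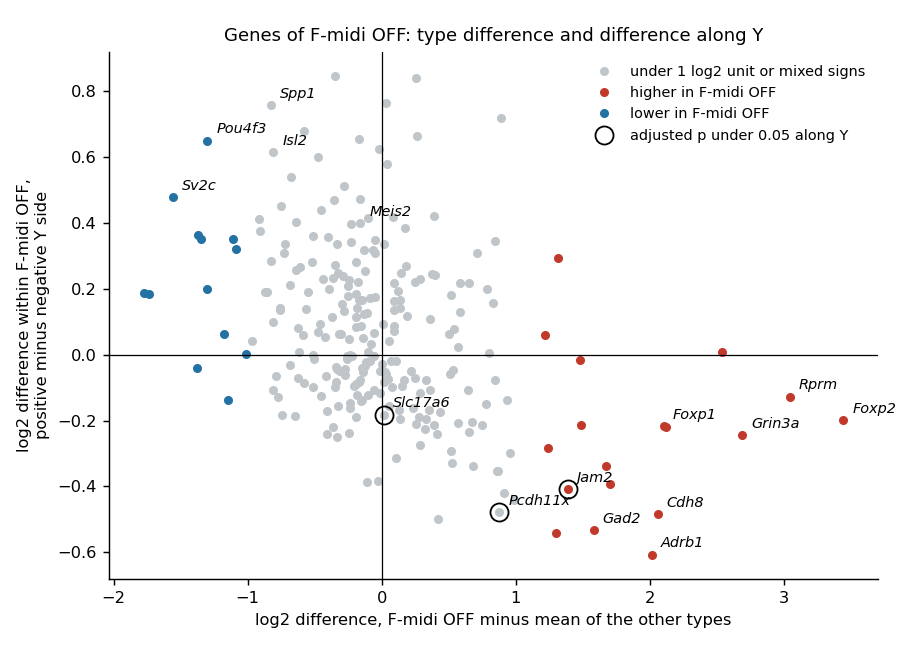
Each point is 1 of 254 genes, with its log2 difference between F-midi OFF and the mean of the other types (x axis) and its log2 difference within F-midi OFF between the positive and the negative Y side (y axis). Genes at least 1 log2 unit higher in the type (red) lie mostly below 0 and those lower (blue) mostly above, and the 3 circled genes passed the threshold along Y.

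Whether position acted alike in the OFF and ON types was tested as the difference of their 2 changes. Along Y 9 of 259 genes differed in edgeR (3.47%), from sums of at least 50 cells a side that F-midi ON reached in 3 retinas. The smallest adjusted p was that of Gabra2, a GABA-A subunit, whose difference along Y was 0.83 ± 0.14 log2 units more negative in OFF (adjusted p = 0.00319). In OFF it stood at 119, 112, 129, 118 and 121 per 10000 puncta on the positive side and 150, 160, 117, 161 and 138 on the negative, lower on the positive side in 4 of 5. In ON it stood at 110, 98.9, 106, 133 and 82.4 against 73.9, 78.6, 89.3, 87.4 and 99.5, higher in 4 of 5. Cdh8 was lower on the positive side in 4 of 5 retinas in OFF and higher in 4 of 5 in ON (difference -1.68 ± 0.36, adjusted p = 0.0205), although the ON values rest on 152 puncta in all.

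In the other 7 genes the adjusted p was 0.0377. Gabrg3 (-1.24), Spon1 (-0.76) and Gabrg1 (-0.99) had a more negative difference in OFF than in ON. In the 2 F-midi ON retinas outside the fit, 3 and 5, the ON values of these 3 genes lay the other way. Per 10000 puncta Gabrg3 stood there at 12.4 and 17.3 on the positive side against 21.1 and 25.7, Spon1 at 40.0 and 48.9 against 42.2 and 57.3, and Gabrg1 at 10.9 and 13.0 against 15.4 and 21.1. Spon1, which encodes a secreted guidance protein, was higher on the positive side in 5 of 5 retinas in OFF as well (0.45 ± 0.14, adjusted p = 0.206), and the ON change in the same direction was 1.21. Maf (1.26), Gal (1.67), Isl2 (1.13) and Meis2 (0.44) had a more positive difference in OFF. For Isl2 the ON retinas outside the fit again lay the other way, at 53.8 and 50.4 on the positive side against 28.8 and 36.9. Of these, Isl2 in OFF was higher on the positive side in 4 of 5 retinas (0.61 ± 0.24, adjusted p = 0.306), and Gal rested on 50 puncta in OFF. Over all type-gene pairs 0.37% passed along Y and 2.34% along the radius. In F-midi ON alone, from 3 retinas on either axis, 10 of 228 genes passed along Y and 5 of 209 along the radius. Of the former, Gabrg3, Spon1, Isl2 and Gal are given above, and Cacna1i (-0.76 in ON) stood at -0.34 ± 0.12 in OFF. With sums of at least 20 cells, which brought in retinas with fewer ON cells, Cdh8 and Gabra2 passed and the other 7 did not. Without retina 5 there were 14. Along the radius (0 of 251, 0%) and along X (0 of 254, 0%) no gene differed between OFF and ON in edgeR, with 17 and 10 at an unadjusted p under 0.05.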

How the data were processed

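Transcripts of 300 genes were counted per cell with Xenium in 5 retinas, deposited as 4 slide-pair samples. No label ties a retina to one of these, so the retina named in the deposited table was the replicate. The values are the authors' deposited counts of puncta per cell, raw and not normalized, and every cell had at least 100. The segmentation, the type assignment and the units of volume and position are not given in the sources used here. The members and gene lists were chosen with earlier results of these data known.

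Counts were summed per retina and type, or per side of an axis where a sum held at least 50 cells in 3 or more retinas. Sums were fitted with edgeR 4.0.16 (quasi-likelihood, TMM, filterByExpr, retina as block) in R 4.3.3, after the fits had been tested on simulated data. DESeq2 1.42.0 was an alternative. Of 300 genes 299 passed the filter between types. Sides were split at a scaled radius of 0.5 and at 0 on X and Y. Adjusted p-values are Benjamini-Hochberg over 45 types for shares, over every gene of every type tested along an axis for genes within a type and over genes for the difference between types, with a threshold of 0.05. Per-retina values were tested with an exact sign-flip test over every combination of signs, in Python 3.11.15 with numpy 2.4.6. Named genes were up to 12 per direction with the largest difference, one sign in all 5 retinas and at least 100 puncta in the higher group, every gene past the threshold along an axis or in the difference between OFF and ON, a few fixed RGC genes, and the ends of each list. Gria1, Gabrg1, Onecut2, Chat, Tfap2b and the genes set against the other F types were named after their values were seen. The same retinas enter every group, which is why the retina was the block. Wilson intervals have 95% confidence. Leaving out each retina, other blocks, filters, cell minimums and neighbour numbers were tried. Some of the genes most like Foxp2 over types are not reported here.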

Additional observations from a re-analysis of the deposited data

Results flagged for a closer look

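In 57 groups of 5 retina values examined, 5 held a value far from the other 4, where chance gives about 1 in 20. The log2 ratio of F-midi ON cells among the neighbours of F-midi OFF cells was -0.51 in retina 4 and 0.14 to 0.30 in the others. The share of F-midi OFF along the radius differed by a log2 of -0.28 in retina 1 and by -0.04 to 0.04 in the others. Adrb1 stood at 1.43 puncta per F-midi OFF cell in retina 1 (1.07 to 1.16 elsewhere), Gabrb1 at 0.837 in retina 3 (0.779 to 0.794) and Kcnh1 at 0.255 in retina 5 (0.159 to 0.186).

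For 9 genes the difference along Y in F-midi OFF was not that of F-midi ON by the test of that difference in edgeR. The log2 differences, OFF minus ON, were -0.83 for Gabra2, -1.68 for Cdh8, -1.24 for Gabrg3, -0.76 for Spon1, -0.99 for Gabrg1, 0.44 for Meis2, 1.26 for Maf, 1.67 for Gal and 1.13 for Isl2. F-midi ON entered this fit from 3 retinas only.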

How the results depend on the processing

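Among cells with at least 200 puncta the share of F-midi OFF was 1.27%. F-midi ON neighbours turned in sign with the 10 nearest cells (-0.053) and, pooled within outlined regions, added after seeing the data (-0.40), with 0.03 to 0.23 leaving out each retina. The share along X ranged from -0.12 to 0.0090 leaving out each retina, and was 0.0090 without retina 4 and 0.0039 without retina 5. Along Y the share stood at -0.32 with an adjusted p of 0.0442 without the retina block and at -0.42 (0.00154) with the section as block. The 4 genes along the radius became 0 without the retina block, 1 in DESeq2, 7 with no filter and 2 without TMM, and 0 to 10 leaving out each retina. The 3 along Y became 0 without the retina block, with at least 20 cells and with a split at the median, 5 in DESeq2 and 7 with no filter, and 0 to 15 leaving out each retina. The 9 genes that differed between OFF and ON along Y became 2 with at least 20 cells and 10 to 14 leaving out a retina. That fit could be made only without retina 3 or 5 along Y and without 1 or 3 along the radius, since F-midi ON then kept 3 retinas. With other cells pooled 59 genes stood apart from the other types, and 33 to 38 leaving out each retina. Of the alternatives for single named genes, 193 kept direction and call and 35 lost the call. Leaving out each retina, 266 kept both and 27 lost the call. None turned. These totals pool genes of unlike stability. Of the 7 genes called within F-midi OFF along an axis, 6, 6, 4, 7 and 3 lost the call without retinas 1 to 5 in turn. Genes named between types lost 1 call, without retina 1. Of the 7 genes called along an axis, 6 lost the call with a split at the median position and 4 without TMM.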
